A study of Papio anubis with 60 samples.

Results

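Among 30730 autosomal H3K4me3 domains of baboon pluripotent cells, 165 (0.537%) bore H3K27me3 in induced pluripotent stem cells (iPSC) and no H3K27me3 peak in embryonic stem cells (ESC). A domain was made by joining the H3K4me3 peaks of both cell types across gaps of at most 1 kb on chromosomes 1 to 20, and was kept at a width of 2 kb or more. The 165 domains were chosen by measured peaks. Each had an H3K4me3 peak in both lists, iPSC H3K27me3 over at least 25% of its length, no ESC H3K27me3 peak and no iPSC H3K9me3 peak. They are called iPSC-only domains here.

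The cells were olive baboon (Papio anubis) ESC of lines B4 and B15, and iPSC, which are made from somatic cells by reprogramming, of lines 160-2 and M14939#3. All lines were grown on feeder cells. Histone marks were mapped by chromatin immunoprecipitation with sequencing (ChIP-seq) from micrococcal nuclease digests, with 6 libraries (3 replicates of each of 2 lines) per cell type and mark. The libraries of a cell type were represented by 1 list of peaks for each mark. No list had a replicate, so no difference could be tested against the spread between cultures, and cell type cannot be told apart from cell line.

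H3K4me3 is laid down at promoters by the MLL/COMPASS methyltransferases, and H3K27me3 by Polycomb repressive complex 2. Promoters that carry both are termed bivalent, and in pluripotent cells they are known from silent developmental genes. H3K27ac is placed by the acetyltransferases p300 and CBP at active promoters and enhancers. It sits on the same lysine as H3K27me3, so a single histone tail holds one or the other, although a peak list drawn from many cells and from both alleles can hold both at one place. H3K9me3 marks constitutive heterochromatin.

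The steps of the rule show how the 165 arose. H3K4me3 peaks of both lists lay on 30512 domains, and iPSC H3K27me3 covered at least 25% of 6133 of these. An ESC H3K27me3 peak lay on most of the 6133, and 1175 had none. The autosomal H3K27me3 list of iPSC held 131632 peaks and that of ESC 51150; shortening the iPSC list to the length of the ESC list left 48 domains in place of the 165. Of the 1175, 1010 overlapped an iPSC H3K9me3 peak and were left out, which leaves the 165. Other classes served for comparison: 2600 domains with H3K27me3 over at least 25% of the length in both cell types, 651 with it in ESC and not in iPSC (and no ESC H3K9me3), and 11763 with no H3K27me3 peak in either. The first and last of these also lacked iPSC H3K9me3.

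The iPSC-only domains were mostly small. Their median width was 2623 bp (quartiles 2333 and 3221), with 112 under 3 kb and 10 of at least 5 kb. Domains with no H3K27me3 had a median width of 2684 bp, and those bivalent in both cell types were wider, at 3835 bp (quartiles 2864 and 5425). All classes share the 2 kb floor, so the lower end of each distribution is set by the rule. The 25% limit bears on the upper end, since a peak of a given width covers a smaller share of a wider domain. Domains that met the other terms had a median width of 3575 bp at an iPSC H3K27me3 cover above 0 and under 10%. It was 2888 bp at 10% to 25% and 2666 bp at 25% to 35%. How far the limit set the widths was not tested.

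H3K27me3 on these domains was narrower and weaker than on domains bivalent in both. Its single peaks were near the middle of their list in strength. Both are descriptions of the values that chose the domains. It covered a median of 30.9% of the length in iPSC (quartiles 27.7 and 37.4, highest 92.5), against 54.8% in the domains bivalent in both. In 113 of the 165 the cover was under 35%, and in 8 it reached 50% or more. A single iPSC H3K27me3 peak lay on 139 domains, 2 peaks on 21 and 3 peaks on 5. The 196 peaks concerned had a median width of 799 bp, against 1138 bp for the iPSC peaks on domains bivalent in both and 442 bp over the autosomal list. Their median fold enrichment over background, a ratio from the authors' peak caller, was 2.77, against 2.97 and 2.72. They had a median −log10 q (the significance the authors' peak caller gave a peak) of 2.05 and a highest value of 5.06. The 5262 iPSC peaks on domains bivalent in both had a median of 2.86 and reached 72.8, and the whole autosomal list had a median of 2.15. A −log10 q of at least 2 was reached by 51.5% of the peaks on the iPSC-only domains, by 77.0% of those on domains bivalent in both, and by 56.6% of the list. Counted by domain, the highest iPSC H3K27me3 fold had a median of 2.82 on the iPSC-only domains. That is above 38.7% of the 14302 domains with such a peak, and so below their middle.

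**Figure D1:**
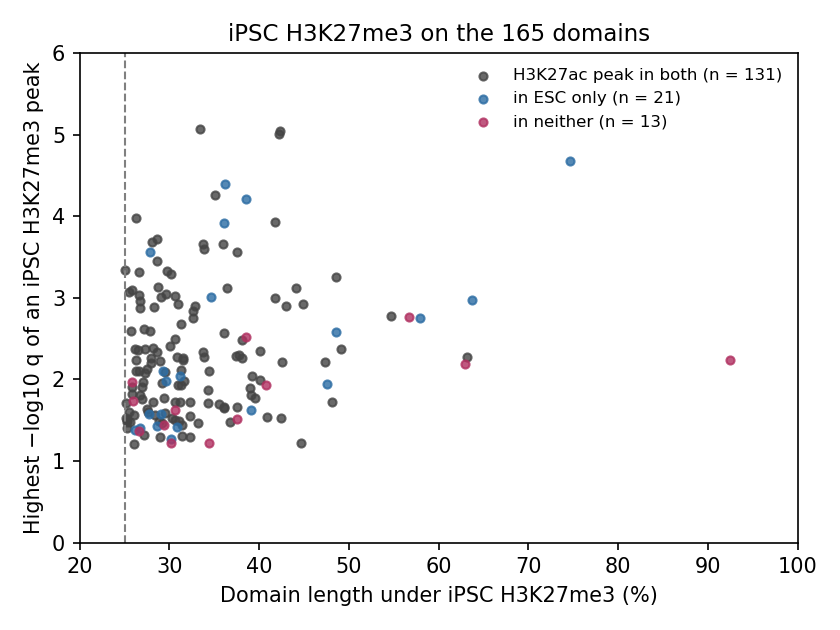
Each point is 1 of the 165 iPSC-only domains, placed by the percent of its length under iPSC H3K27me3 (x axis, the dashed line is the 25% limit of the rule) and by the highest −log10 q of an iPSC H3K27me3 peak on it (y axis), and coloured by H3K27ac. Most points lie between 25% and 35%, and all lie at or under a −log10 q of 5.06.

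The 25% limit cut through a continuous range. Just inside it lay domains at 123333044 to 123335735 on chromosome 11 (25.07% covered), at 13001710 to 13004122 on the same chromosome (25.2%) and at 2475787 to 2478771 on chromosome 5 (25.2%). Just outside lay domains at 157770019 to 157772423 on chromosome 5 (24.99%), at 32180682 to 32183409 on chromosome 11 (24.9%) and at 85358506 to 85360584 on chromosome 4 (24.8%). All 6 bore H3K27ac in both cell types. At any iPSC H3K27me3 cover above 0, 2239 domains met the other terms of the rule.

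H3K27ac, which the rule did not use, lay on most iPSC-only domains in both cell types. An ESC H3K27ac peak overlapped 152 of the 165, or 92.1% (95% Wilson interval 87.0 to 95.3), and an iPSC peak 131, or 79.4% (72.6 to 84.9). Over all 30730 domains these shares were 78.9% and 66.4%. The domains with no H3K27me3 gave 91.8% in ESC and 79.3% in iPSC, values that lie inside the intervals of the iPSC-only domains. Those bivalent in both gave 30.2% (28.5 to 32.0) and 16.0% (14.6 to 17.4). The domains bivalent in ESC only gave 61.6% (57.8 to 65.3) and 44.7% (40.9 to 48.5), so the mirror class bore H3K27ac less often than the iPSC-only domains in both cell types, by more than the counting intervals. These intervals cover counting error only. On each of the 20 chromosomes the iPSC H3K27ac share of the iPSC-only domains was above that of the domains bivalent in both, and it was above that of the domains without H3K27me3 on 9 and below it on 11. A chromosome held only 1 to 15 iPSC-only domains, and on chromosome 10 the share was 1 of 4 (25%), against 15.8% of those bivalent in both.

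**Figure D2:**
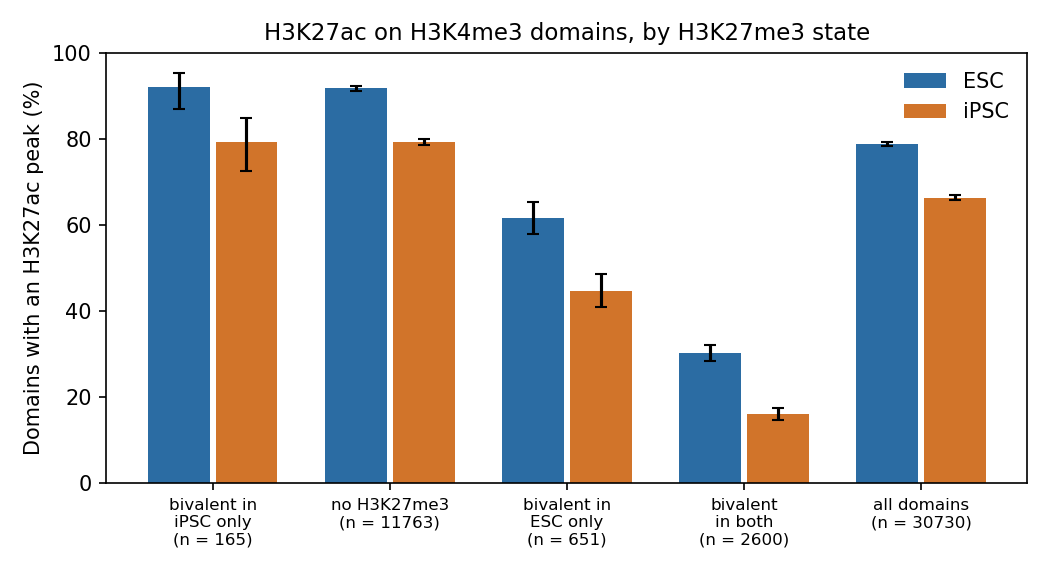
Bars give the percent of H3K4me3 domains that overlap an H3K27ac peak of ESC (blue) or iPSC (orange), by H3K27me3 state, with 95% Wilson intervals for counting error and the number of domains under each pair. The iPSC-only domains (92.1% and 79.4%) stand beside the domains without H3K27me3 (91.8% and 79.3%), and the domains bivalent in both stand lowest (30.2% and 16.0%).

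The term bivalent thus holds for these domains by the rule, while 131 of the 165 carried the active mark H3K27ac in the same iPSC lists. The remaining 34 divided into 21 with H3K27ac in ESC and not in iPSC (12.7%, against 14.6% of all domains) and 13 with H3K27ac in neither (7.88%, against 19% of all domains). No iPSC-only domain had H3K27ac in iPSC and not in ESC, and 2.03% of all domains had it. A count of 0 among 165 allows a share of up to 1.82% by the limit of 3 counts and up to 2.28% by the 95% Wilson interval, which holds the share of all domains. The share with H3K27ac in ESC only had a 95% Wilson interval of 8.48 to 18.7, which holds the share of all domains. It was 5.66% (3.01 to 10.4) with firm peaks in every list (−log10 q of at least 5 for H3K4me3 and H3K27ac and of at least 2 for the other marks), against 17.9% of all domains at that setting. When the longer ESC H3K27ac list was shortened to the length of the iPSC list it was 4.85% (2.48 to 9.27), against 8.51% of all domains. The iPSC-only domains thus lay below all domains by more than counting error with firm peaks. They did not at the main setting or with the shortened ESC H3K27ac list.

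By amount, H3K27ac covered a median of 35.9% of an iPSC-only domain in ESC (quartiles 20.6 and 48.7) and 28.0% in iPSC (8.21 and 41.0). In domains with no H3K27me3 the medians were 23.7% and 14.0%, and in those bivalent in both they were 0 in each cell type. Fewer base pairs were covered in iPSC than in ESC in 126 of the 165 (76.4%), against 66.5% of all domains and 76.7% of those without H3K27me3. The autosomal H3K27ac list of ESC covered 102 Mb and that of iPSC 54.4 Mb, and the part of this difference in the domain values was not tested. The H3K27ac peaks on the iPSC-only domains were strong within their own lists. Their highest fold enrichment had a median of 5.93 in ESC over the 152 domains with a peak and of 5.16 in iPSC over the 131. These medians exceeded the values of 84.2% of the ESC and 83.1% of the iPSC domains with such a peak.

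H3K4me3 was likewise strong, and its cover was much the same in both cell types. H3K4me3 peaks covered a median of 82.8% of the length in ESC (quartiles 67.2 and 90.8) and 82.5% in iPSC (69.6 and 90.3). Domains without H3K27me3 had 50.2% and 55.6%, and those bivalent in both 76.2% and 79.0%. Cover was lower in iPSC in 88 of the 165 (53.3%), against 42% of all domains, and lower in ESC in the other 77. The highest H3K4me3 fold of a domain had a median of 10.05 in ESC and 8.82 in iPSC. That is above 73.9% of all domains in the ESC list and above 76.1% in the iPSC list. Against the median of all domains of its own list, the fold was higher in 136 of the 165 in ESC and in 131 in iPSC. In the domains without H3K27me3 the median folds were 5.28 and 5.50, and in those bivalent in both 10.2 and 8.37. In H3K4me3 strength the iPSC-only domains were thus near the domains bivalent in both, and in the frequency of H3K27ac near those without H3K27me3. This strength was not particular to them. The 904 domains that met the other terms of the rule at an iPSC H3K27me3 cover of 10% to 25% had median H3K4me3 folds of 10.3 and 8.77. Their median H3K27ac folds were 5.44 in ESC and 4.61 in iPSC.

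**Figure D3:**
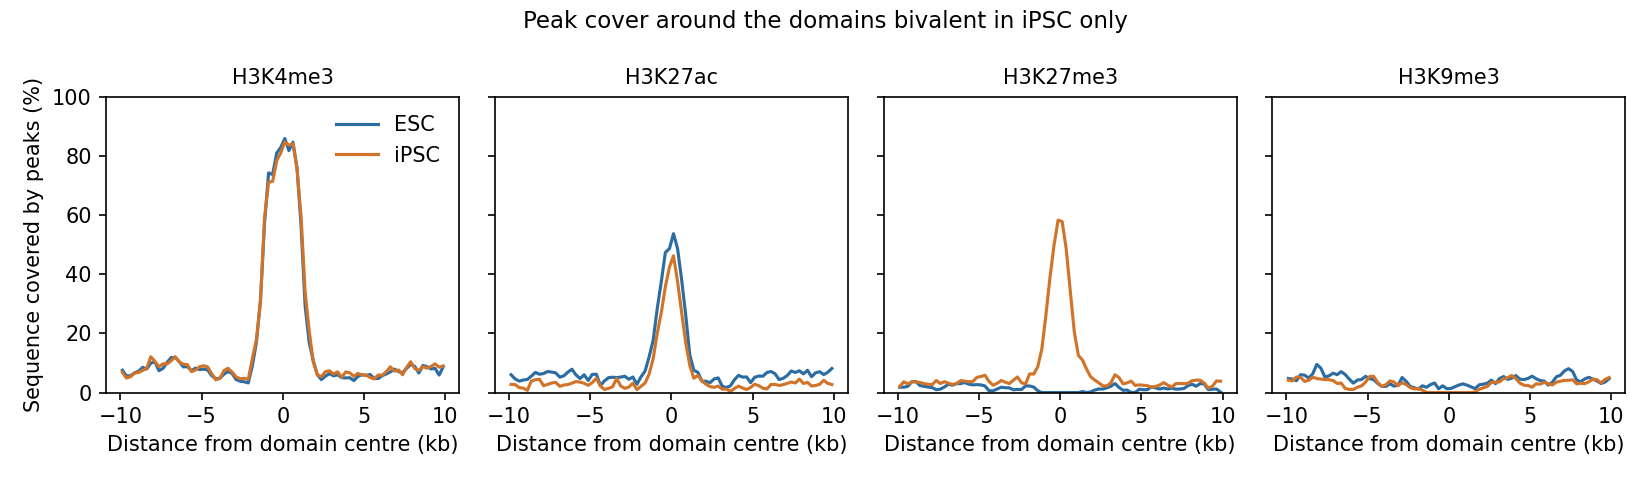
Lines give the percent of sequence covered by peaks of each mark in bins of 250 bp from 10 kb before to 10 kb after the centres of the 165 iPSC-only domains, in ESC (blue) and iPSC (orange). H3K4me3 lines of both cell types overlie each other, H3K27ac peaks at 53.7% in ESC and 46.2% in iPSC, and iPSC H3K27me3 rises to 58.2% at the centre and falls to a mean of 3.16% beyond 5 kb; the zero levels of ESC H3K27me3 and iPSC H3K9me3 at the centre are set by the rule.

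Within the domains, iPSC H3K27me3 lay towards the middle. It covered 50.2% of the central part of the domains (the middle 50% of the length) and 17.4% of the outer part, so that 74.3% of its base pairs were central. iPSC H3K27ac had the same order, with 36.4% and 14.8%, and so had ESC H3K27ac, with 45.7% and 22.4%. In domains bivalent in both, iPSC H3K27me3 was spread evenly, with 62.3% of the central and 59.2% of the outer part. There the mark covered more of the length, and it covered 14.0% of the sequence within 5 kb of the edges. Of the 196 iPSC H3K27me3 peaks on the iPSC-only domains, 177 lay wholly inside the domain and 19 crossed its edge. Such inside peaks, placed at random within a domain, would also cover the middle more than the ends, and random placement was not compared. In 71 of the 165 domains at least 90% of the H3K27me3 base pairs lay on one side of the centre. This was not counted in other classes.

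The H3K27me3 base pairs fell largely under H3K27ac of the same cell type. In the 131 domains with both iPSC marks, 57.8% of the H3K27me3 base pairs lay in iPSC H3K27ac peaks, while such peaks covered 31.7% of the domains. Some base pairs were shared in 125 of the 131. In the 415 domains bivalent in both that had iPSC H3K27ac, 6.11% of the H3K27me3 base pairs lay under it, and it covered 7.90% of those domains. Some base pairs were shared in 222 of the 415. Such sharing was not counted over all domains. Counted by domain, H3K27me3 was denser under H3K27ac than over the whole domain in 118 of 131 (90.1%), against 56% of the 7864 domains of any class with both iPSC marks and 39.3% of those bivalent in both. The sequence concerned was acetylated in ESC too: where ESC H3K27ac was present, 58.9% of the iPSC H3K27me3 base pairs lay under it, against 36.6% of the domain. The share under iPSC H3K4me3 peaks was 80.1%, near the 76.8% of the domain that they covered. In these domains iPSC H3K27me3 and H3K27ac both lay towards the middle, and sharing beyond that common position was not tested. The peak lists do not show whether both marks were on the same cells, alleles or nucleosomes.

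H3K27ac was rarer at the highest H3K27me3 cover, a group of few domains. Among domains with no ESC H3K27me3 and no iPSC H3K9me3, an iPSC H3K27ac peak lay on 79.3% of those without iPSC H3K27me3, on 88.8% at a cover above 0 and under 10%, and on 89.9% at 10% to 25%. Within the iPSC-only domains it lay on 94 of 113 (83.2%, 95% Wilson interval 75.2 to 89.0) at 25% to 35%, on 35 of 44 (79.5%, 65.5 to 88.8) at 35% to 50%, and on 2 of 8 (25%, 7.15 to 59.1) at 50% or more. ESC H3K27ac lay on 93.8%, 93.2% and 62.5% of the same groups. Across the 165 domains, Spearman's rho between H3K27me3 cover and iPSC H3K27ac cover was −0.01, and across all domains it was −0.30. These points share their peak lists and are not independent.

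**Figure D4:**
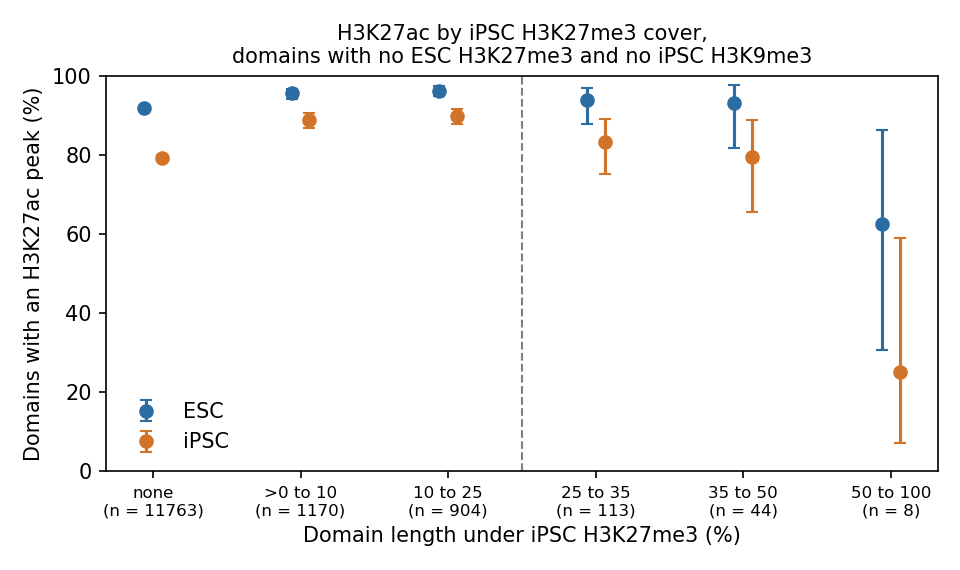
Points give the percent of domains with an H3K27ac peak of ESC (blue) or iPSC (orange) in groups of rising iPSC H3K27me3 cover, among domains with no ESC H3K27me3 and no iPSC H3K9me3, with 95% Wilson intervals for counting error; iPSC-only domains lie right of the dashed line. Shares stay at or above 79.3% up to a cover of 50% and are 62.5% and 25% in the last group, which holds 8 domains.

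The 34 iPSC-only domains without iPSC H3K27ac had weaker H3K4me3 than the 131 with it. Their median H3K4me3 fold was 6.01 in ESC and 5.89 in iPSC, against 10.7 and 9.13, and ESC H3K4me3 covered 67.5% of their length, against 85.2%. Median H3K27me3 cover was 32.8% and 30.6%, and the median of its highest −log10 q per domain 1.95 and 2.22. Their widths were close, with medians of 2556 and 2635 bp.

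H3K9me3 of ESC, a heterochromatin mark that the rule left free, was rare on the iPSC-only domains. It overlapped 16 of the 165, or 9.70% (95% Wilson interval 6.06 to 15.2), against 28.6% of all domains. Since the rule removed iPSC H3K9me3, the classes that also lack it are the closer comparison: 8.99% of the domains without H3K27me3 and 26.2% (24.5 to 27.9) of those bivalent in both bore it. Of the 16 domains, 9 were among the 34 without iPSC H3K27ac and 7 among the 131 with it. The share moved with the settings. It was 0 of 53 domains of at least 3 kb (up to 5.66% by the limit of 3 counts and 6.76% by the Wilson interval), 15.2% when peaks were joined within 2 kb, and 25% of the 8 domains with a cover of at least 50%.

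The surroundings of the iPSC-only domains held less H3K27me3 than those of the domains bivalent in both. In iPSC they held more than those of the domains without H3K27me3. Within 5 kb of their edges, ESC H3K27me3 covered 1.49% of the sequence and iPSC H3K27me3 3.26%. The domains bivalent in both had 28.0% and 14.0% there, and the domains without H3K27me3 had 1.18% and 1.60%. The rule bars any ESC peak that reaches into an iPSC-only domain, while the class bivalent in both requires one. The ESC contrast between these classes is therefore partly set by the selection. So is the iPSC contrast with the domains without H3K27me3. An iPSC-only domain requires an iPSC H3K27me3 peak, and 19 of the 196 such peaks crossed an edge. The class without H3K27me3 bars any peak that reaches into the domain. The nearest ESC H3K27me3 peak lay at a median of 32.5 kb (quartiles 8.90 and 93.0), close to the 28.4 kb of the domains without H3K27me3. It lay within 5 kb of 31 of the 165 and over 100 kb from 40. For the 11763 domains without H3K27me3 these counts were 1887 and 2145. The nearest domain bivalent in both was a median of 255 kb away, against 345 kb for the domains without H3K27me3. Such a domain lay within 5 kb of 1 of the 165 and of 123 of the 11763.

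The iPSC-only domains were scattered over all 20 autosomes. Neighbours on a chromosome were a median of 8782 kb apart, and only 1 pair lay within 100 kb of each other. That pair lay on chromosome 12, at 89148634 to 89151113 and 89238081 to 89241685. ESC and iPSC H3K27ac covered 34.5% and 13.0% of the first and 38.4% and 27.8% of the other, with H3K27me3 over 28.2% and 31.7% in iPSC. Chromosome 1 held 15 of the 165, chromosome 19 held 14 and chromosome 11 held 13. Per 1000 H3K4me3 domains, chromosome 19 had the most, at 11.7, with 4.83 on chromosome 1, 7.64 on chromosome 11 and 1.40 (1 domain) on chromosome 18. The domains bivalent in ESC only did not have this order, with 18.4 per 1000 on chromosome 19 and a range from 15.7 to 25.9 over the chromosomes. The rates of the iPSC-only domains rest on at most 15 domains per chromosome, and differences between chromosomes were not tested.

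Single domains illustrate these patterns. The widest, 9.91 kb at 30262084 to 30271994 on chromosome 4, also had the third highest fold of iPSC H3K27me3, 3.82, and the mark covered 42.4% of it in 3 peaks. H3K27ac covered 25.8% of it in ESC and 16.1% in iPSC, and 15.9% of the H3K27me3 base pairs lay under iPSC H3K27ac. The nearest ESC H3K27me3 peak was 19.4 kb away. The next widest, 7.55 kb at 30697480 to 30705028 on chromosome 11, had a single H3K27me3 peak over 36.5% of its length. Of that peak, 85.4% lay under iPSC H3K27ac, which covered 37.1% of the domain, and ESC H3K27ac covered 35.9%.

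Like the widest domain, and unlike the next widest, the remaining domains among the 5 widest had less H3K27ac in iPSC than in ESC. A 6.58 kb domain at 44799884 to 44806466 on chromosome 19 had H3K27ac over 43.2% in ESC and 23.0% in iPSC, with H3K27me3 over 25.3%. On chromosome 11, a 6.37 kb domain at 93498819 to 93505192 had 24.5% and 8.25% H3K27ac, with H3K27me3 over 26.1% and an ESC H3K27me3 peak 1.57 kb from its edge. A 6.12 kb domain at 13269084 to 13275201 on chromosome 19 had H3K27ac over 2.44% in ESC and none in iPSC, with H3K27me3 over 38.5%.

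The highest fold of iPSC H3K27me3, 4.10, lay on a 2.13 kb domain at 39738335 to 39740466 on chromosome 16. H3K27ac covered 66.4% of it in ESC and 50.2% in iPSC, and 73.1% of the H3K27me3 base pairs lay under iPSC H3K27ac. At 26904451 to 26906641 on chromosome 4 (fold 3.79) the whole 731 bp of H3K27me3 lay under H3K27ac of both cell types. A domain at 154991575 to 154994021 on chromosome 1 (fold 3.78) had 56.3% of its H3K27me3 under iPSC H3K27ac. The exception among the 5 highest was a 2.91 kb domain at 44153521 to 44156430 on chromosome 20 (fold 3.86), with H3K27ac over 16.8% in ESC and none in iPSC, and an ESC H3K27me3 peak no nearer than 223 kb.

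Domains with H3K27ac in ESC and not in iPSC are those where the H3K27me3 and H3K27ac lists differed in opposite ways. By ESC H3K27ac base pairs the first 5 of the 21 lay at 43690404 to 43692486 on chromosome 16 (1041 bp), 156156 to 159570 on chromosome 11 (815 bp), 5115917 to 5118963 on chromosome 5 (783 bp), 2246867 to 2249096 on chromosome 14 (742 bp) and 2921607 to 2923984 on chromosome 15 (574 bp). iPSC H3K27me3 covered 30.8%, 34.6%, 31.1%, 57.9% and 26.2% of them in that order. In the domain of chromosome 11, 7.61% of the H3K27me3 base pairs lay where ESC had H3K27ac, and in the other 4 between 12.5% and 36.0%. H3K4me3 cover was higher in iPSC in 3 of these domains, such as the one on chromosome 16 (86.1% in ESC and 92.5% in iPSC), and lower in the other two, such as the one on chromosome 15 (61.0% and 45.6%).

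The domains with the highest H3K27me3 cover, named after their values were seen, lacked iPSC H3K27ac in 4 of 5 cases. The highest cover, 92.5%, was that of a 2.19 kb domain at 29624664 to 29626851 on chromosome 4, with H3K4me3 over 86.0% in ESC and all of its length in iPSC. It had no H3K27ac in either list, and an ESC H3K27me3 peak lay 1.44 kb from its edge. Next came a domain at 816082 to 820038 on chromosome 10, with a cover of 74.6% and H3K27ac over 7.86% in ESC and none in iPSC. A domain at 131157862 to 131160286 on chromosome 11 (63.7%) had 9.07% and none, and one at 61844730 to 61847039 on chromosome 17 (62.9%) had none in either. The fourth in this order, at 4041620 to 4044075 on chromosome 16 (63.2%), had H3K27ac over 45.2% in ESC and 29.2% in iPSC.

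**Figure D5:**
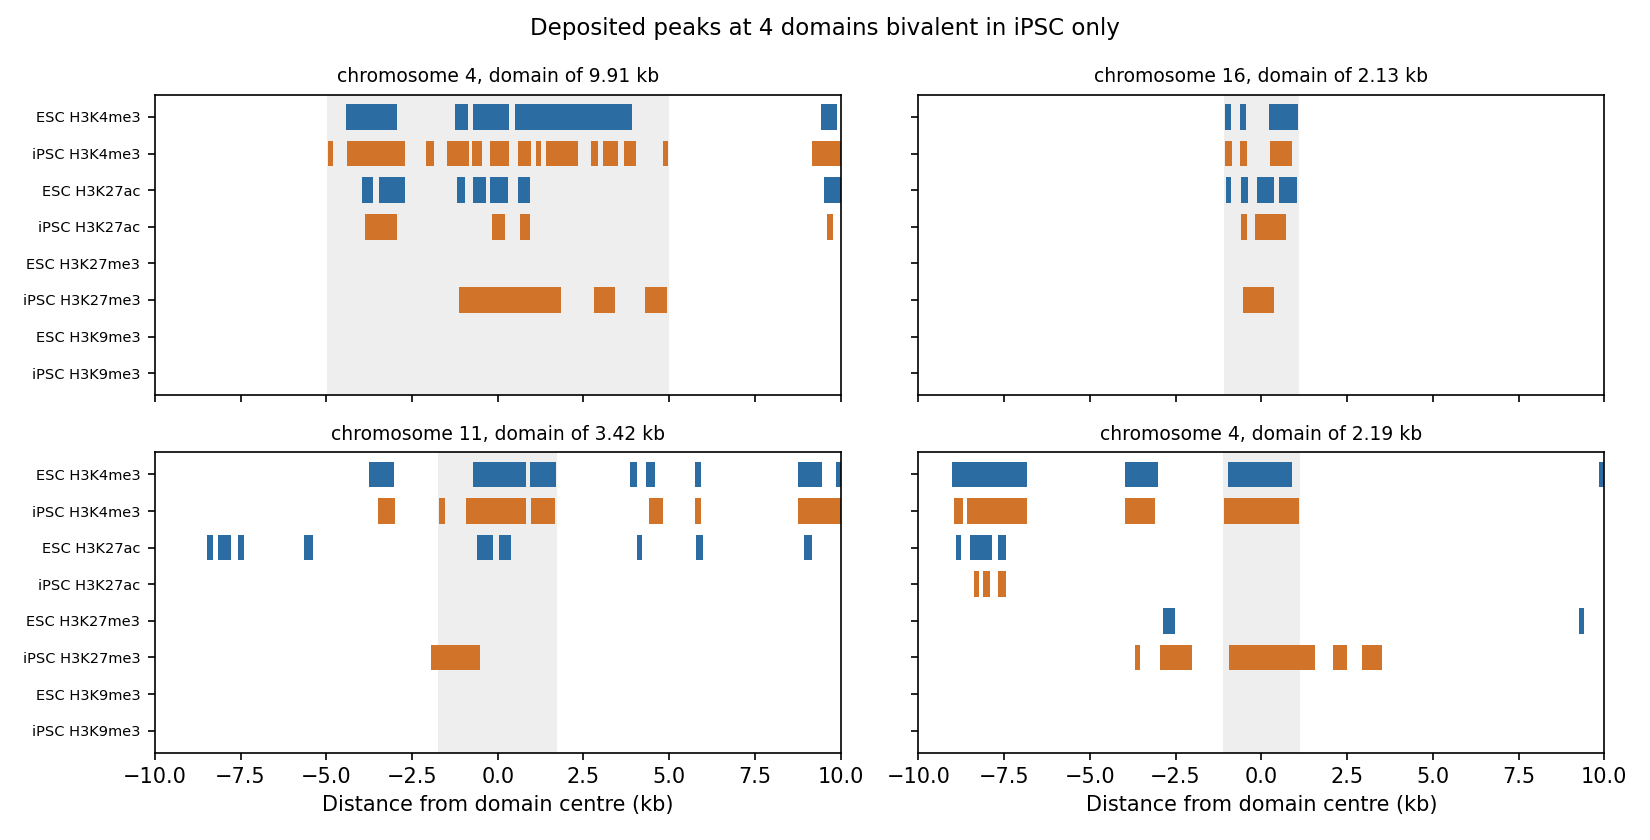
Bars are deposited peaks of 4 marks in ESC (blue) and iPSC (orange) within 10 kb of the centres of 4 iPSC-only domains, which are shaded: the widest (9.91 kb, chromosome 4), the one with the highest iPSC H3K27me3 fold (2.13 kb, chromosome 16), one with H3K27ac in ESC and not in iPSC (3.42 kb, chromosome 11) and the one with the highest cover (2.19 kb, chromosome 4). iPSC H3K27me3 overlaps H3K27ac in both upper panels, and no iPSC H3K27ac lies in the shaded part of the lower ones.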

How the data were processed

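The 8 peak lists (H3K4me3, H3K27ac, H3K27me3 and H3K9me3 in ESC and iPSC) were used as the authors deposited them. MACS2, SAMtools 1.10, Picard and deepTools were used, per the submitters' processing notes. For the aligner, genome build, calling thresholds and combining of libraries and inputs, nothing is given in the sources used here. Each deposited list gives a fold enrichment (a ratio) per peak, and each deposited list gives the −log10 q per peak. Both are the authors' values and were compared, as ranks or limits, inside single lists. No counts were used, so depth is unknown.

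Domains were built from the pooled H3K4me3 peaks as the rule says, and covered base pairs were counted after overlapping peaks of a list were merged. An overlap of 1 bp counted as a peak on a domain. Intervals are Wilson intervals at 95% (SciPy 1.17.1, Python 3.11.15), and neighbouring domains are not independent. The overlap functions were tested on simulated peaks. With 1 list per cell type and mark, no p-value was computed.

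The members and the measures were chosen with earlier results of these data known. The domains named were the 5 widest, the 5 with the highest iPSC H3K27me3 fold, the 5 with most ESC H3K27ac among those with none in iPSC, the converse 5 (there were none), 3 on each side of the 25% limit and the longest run of members within 100 kb. The gene table at hand, for Panubis1.0, was not used for positions: on 12 of 21 chromosomes its last gene ended over 5 Mb from the last peak. No gene is named and no sequence was used.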

Additional observations from a re-analysis of the deposited data

How the results depend on the processing

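No paired analysis was possible because each peak list holds all replicates of a cell type and mark; for the same reason no replicate could be left out. The 165 domains became 53 at a width floor of 3 kb, 1069 at an iPSC H3K27me3 cover of at least 10%, 8 at 50%, and 48 when the iPSC H3K27me3 list was shortened to the length of the ESC list; the other 4 settings gave 125 to 184. At 3 kb, at 10%, at 50% and with the shortened iPSC H3K27me3 list, in that order, ESC H3K27ac lay on 98.1%, 95.6%, 62.5% and 97.9% of the domains and iPSC H3K27ac on 84.9%, 88.3%, 25% and 85.4%. With firm peaks the ESC share was 86.8%. When a mark had to cover at least 10% of the domain, the shares were 82.4% and 70.3%. With the ESC H3K27ac list shortened to the length of the iPSC list, the ESC share was 82.4%. H3K27ac in ESC only lay on 8.04% at a cover of 10% and 37.5% at 50%. It lay on 5.66% with firm peaks (17.9% of all domains) and 4.85% with the shortened ESC H3K27ac list (8.51% of all domains). ESC H3K9me3 lay on 4.89% with peaks joined within 500 bp, 15.2% within 2 kb, 0 at 3 kb, 25% at a cover of 50%, 5.03% with firm peaks and 4.17% with the shortened H3K27me3 list. For the other shares, none over all domains was counted at changed peaks, joins or widths, or with the 10% cover of a mark. Whether those changes were particular to the iPSC-only domains is therefore not known. The cause of these changes was not tested. Cover of 50% rests on 8 domains. Depth is unknown, so a missing peak does not show that a mark was absent.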

Other observations

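Outside the 20 autosomes few domains met the same rule. On the X, 1 of 1015 H3K4me3 domains did, and it bore H3K27ac in both cell types, while 36 were bivalent in ESC only and 33 in both. On unplaced scaffolds, 5 of 758 domains did, 3 with ESC and 4 with iPSC H3K27ac.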
